A study of Mus musculus with 17 samples.

Results

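The comparison set all cells grown in culture from adult mouse hepatic progenitors against primary liver cells. It took the mean of 3 cultured group means (11 arrays) minus the mean of 2 primary group means (6 arrays). The genes of interest were those for which all 3 cultured groups lay on the same side of both primary cell types, called same-side genes below. Of 25971 genes tested, 9032 were same-side, 4396 with the cultured groups higher and 4636 with them lower. All 17 arrays of the series entered the comparison.

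Every animal was a Foxl1-CRE; RosaYFP mouse, 6 to 10 weeks old, so the primary cells carried both alleles too. Cre is driven by Foxl1, and the yellow fluorescent reporter marks cells that have used Foxl1, together with their progeny. The cultured groups were undifferentiated progenitors (n = 4), progenitors differentiated in vitro as hepatocytes (n = 4, the hepatocyte condition) and progenitors differentiated in vitro as cholangiocytes (n = 3, the cholangiocyte condition). The primary groups were hepatocytes (n = 4) and cholangiocytes (n = 2), which line the ducts that carry bile. The labels do not say whether arrays of a group came from separate animals, clones or cultures, so the p-values reflect no more than the spread among these arrays, which may be technical. Arrays of different cultured groups may also share a source, which was not tested, and the main fit treated all arrays as independent. Culture and cell origin differ together between the 2 sides and cannot be told apart.

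Hepatocytes make plasma proteins, bile acids and the enzymes of detoxification, and cholangiocytes form a tight, polarised epithelium around bile. Hepatic progenitors are known for their ability to give rise to both. Epithelial cells placed in culture are known to lose junction components, to build actin stress fibres and to switch on genes of mesenchymal cells, among them vimentin and factors such as Zeb2 and Twist2. Foxl1 marks progenitors that appear in injured liver, and it is also used by mesenchymal cells of the gut.

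Levels are given as log2 intensity after subtracting the log2 of the 75th percentile of the same array. Differences are cultured minus primary on that log2 scale, each with its SE from limma. Passing means an adjusted p (Benjamini-Hochberg, every gene tested) under 0.05. The 75th percentile lay between 1739 and 2530 intensity units on cultured arrays, between 544.3 and 983.1 in primary hepatocytes and at 2684 and 2847 in primary cholangiocytes. An array had 23905 to 29257 probes well above background. The number of arrays limits the precision, and 4 of the 5 slides held arrays of both sides.

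Alb, the gene of serum albumin, was uneven in cultured cells. It stood at 6.01, 1.26, -4.44 and -8.74 in undifferentiated cells, at 7.63, -4.75, 7.58 and -3.65 in the hepatocyte condition and at -4.09, -7.95 and -9.31 in the cholangiocyte condition. It lay between 9.46 and 10.32 in primary hepatocytes and at -4.93 and -9.64 in primary cholangiocytes. Its cultured minus primary difference of -3.60 ± 2.42 missed the threshold (adjusted p = 0.225), as did that of Ttr, another plasma carrier (-2.85 ± 1.25, adjusted p = 0.0679). Hnf4a, a hepatocyte transcription factor, lay between 4.47 and 5.96 on cultured arrays, against 6.76 to 7.31 in primary hepatocytes and 3.94 and 1.42 in primary cholangiocytes, so it was not same-side. The same held for Krt19 and Krt7, keratins of bile ducts. Krt19 lay between 3.79 and 7.04 on cultured arrays, against 7.30 and 6.69 in primary cholangiocytes and -8.52 to -5.84 in hepatocytes. Krt7 lay between 3.27 and 5.18 on cultured arrays, against 5.50 and 5.47 in primary cholangiocytes, and was not above background in hepatocytes. Not every ductal marker set the primary types apart: Sox9 stood at -3.63 in primary cholangiocyte replicate 3, within the hepatocyte range.

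Over all genes, 13942 passed the comparison, 53.7% of those tested. The cultured cells were higher for 6644 genes (25.6%) and lower for 7298 (28.1%). Of these, 3926 were same-side and higher (15.1%) and 3563 were same-side and lower (13.7%), so 52.4% of the same-side genes that passed were higher. With arrays scaled to the median instead, that share was 63.8%, and with quantile normalization 58.2%; the median of all genes was -0.16 in the main scaling, and near 0 in both others. At 2-fold or more, 2116 same-side genes were higher and 2487 lower. A stricter set passed all 6 differences between a cultured and a primary group: 256 genes higher in culture (0.986%) and 138 lower (0.531%). With slide as a block that set held 124 higher and 86 lower genes, and without primary cholangiocyte replicate 3 it held 157 higher. Of the single differences, undifferentiated cells were higher than primary hepatocytes for 26.6% of genes and lower for 37.6%, the hepatocyte condition for 26% and 33.7% and the cholangiocyte condition for 26.9% and 29.9%. Against primary cholangiocytes, with 2 arrays, undifferentiated cells were higher for 2729 genes and lower for 8.5%, and the shares were 10.6% and 8.45% for the hepatocyte condition and 12% and 7.62% for the cholangiocyte condition. These comparisons share their primary arrays. Arrays of the 2 sides did not overlap for 1259 genes that were higher (4.85%) and 680 that were lower (2.62%).

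**Figure D1:**
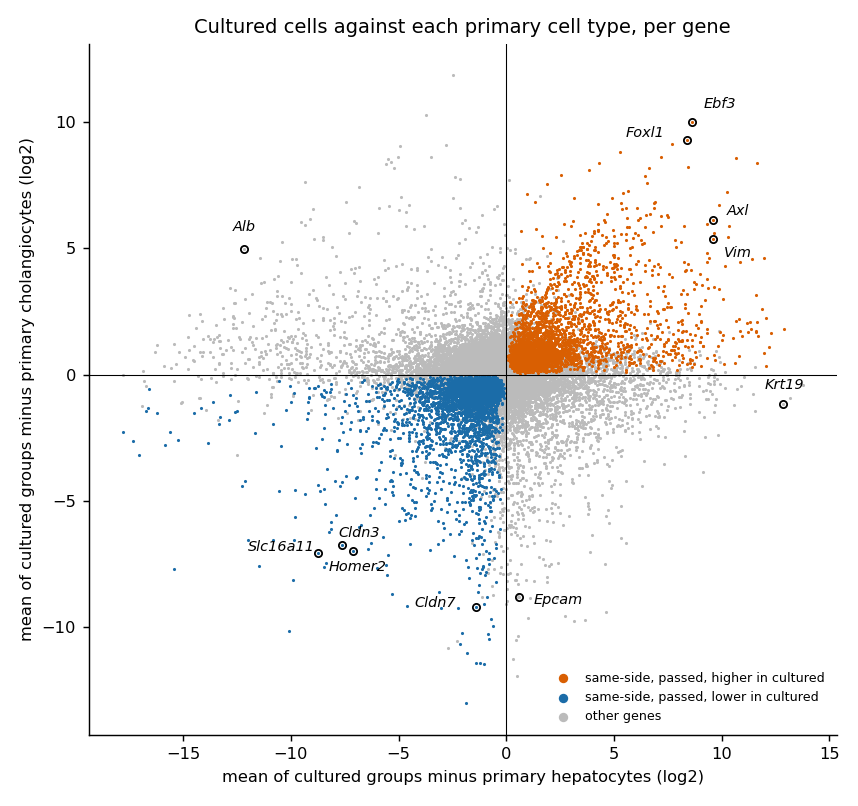
Each point is a gene: the mean of the 3 cultured groups minus primary hepatocytes on the x axis and minus primary cholangiocytes on the y axis, both log2. The 3926 higher (orange) and 3563 lower (blue) same-side genes that passed fill 2 opposite quadrants, while Alb and Krt19 lie in the others.

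Among same-side genes measured on every array and with no overlap between the sides, ranked by the smallest of the 6 differences between a cultured and a primary group, the higher genes began with Ak1, an adenylate kinase best known from muscle (5.54), and Vim (5.02). Vim encodes vimentin, the intermediate filament of mesenchymal cells. It stood at 6.08, 6.27, 6.22 and 5.89 in undifferentiated cells, at 5.70, 5.26, 6.08 and 5.38 in the hepatocyte condition and at 5.69, 6.37 and 6.28 in the cholangiocyte condition. Primary hepatocytes gave -4.58, -2.96, -3.46 and -3.71, and primary cholangiocytes -2.01 and 3.17. All 11 cultured arrays were above all primary arrays, as the ranking required, and the 2 cholangiocyte arrays differed from each other more than the cultured arrays did. The difference was 7.49 ± 0.56 (adjusted p = 1.06e-07), or 180-fold, but it was 6.19 without primary cholangiocyte replicate 3 and 8.78 without replicate 4. It was 8.89, 9.35, 8.59 and 6.92 within the 4 slides that held both sides.

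Sparc, a matrix glycoprotein, stood at 6.68, 6.01, 7.18 and 6.67 in undifferentiated cells, at 5.02, 6.29, 6.38 and 6.00 in the hepatocyte condition and at 7.07, 5.88 and 7.23 in the cholangiocyte condition. It stood at 1.60, 2.48, 2.25 and 1.60 in primary hepatocytes and at 1.39 and 0.39 in primary cholangiocytes. Sparc came from the same ranking, which required that no arrays overlap, and the smallest of the 6 group differences was 3.94. Sparc was higher by 4.99 ± 0.29 (adjusted p = 9.14e-09). Lgals1, the gene of the small secreted lectin galectin-1, was higher by 4.70 ± 0.51 (adjusted p = 3.67e-06), with cultured arrays between 4.99 and 6.87 and primary arrays between -0.82 and 3.90. Nes, an intermediate filament of neural and other progenitors, was higher by 4.31 ± 0.64 (adjusted p = 5.9e-05).

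Several receptors and enzymes were higher as well. Axl, a receptor tyrosine kinase of the TAM family, stood at 3.97, 4.29, 4.31 and 5.02 in undifferentiated cells, at 3.79, 3.77, 3.99 and 4.47 in the hepatocyte condition and at 4.81, 4.90 and 4.55 in the cholangiocyte condition. Primary hepatocytes gave -5.67, -3.90, -4.72 and -6.54, and primary cholangiocytes -4.30 and 0.85. All cultured arrays were higher, by 7.85 ± 0.61 (adjusted p = 1.44e-07), or by 6.56 without primary cholangiocyte replicate 3 and 9.14 without replicate 4. Unc5b, a netrin receptor, was higher by 5.47 ± 0.21 (adjusted p = 1.26e-10), with cultured arrays between 4.45 and 5.49 and primary arrays between -2.21 and 1.30. Ak1 was higher by 7.08 ± 0.45 (adjusted p = 2.15e-08), and Adgra2, an adhesion receptor that takes part in Wnt7 signalling, by 4.49 ± 0.26 (adjusted p = 7.38e-09). Tuba1a, an alpha-tubulin of growing cells, was higher by 6.32 ± 0.54 (adjusted p = 3.27e-07), although its cultured range of 5.52 to 6.14 was close to primary cholangiocyte replicate 4, at 4.78.

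**Figure D2:**
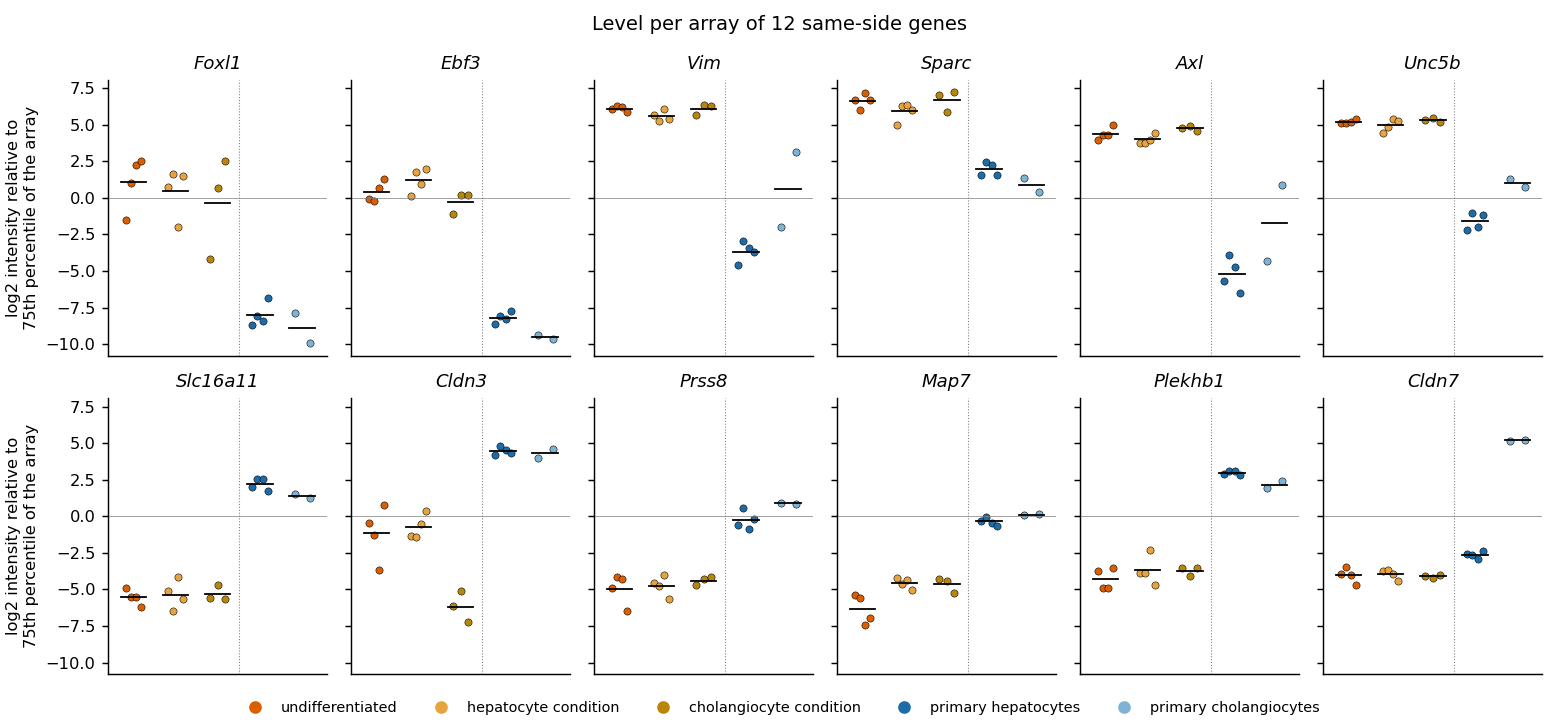
Level per array (log2 intensity relative to the 75th percentile) of 6 same-side genes higher in culture (top) and 6 lower (bottom); each point is an array, bars are group means, and the dotted line parts cultured groups (left) from primary groups (right). No cultured array overlaps a primary array in any of the 12 panels. The ranking that named Vim, Sparc, Unc5b, Slc16a11, Cldn3, Prss8, Map7 and Plekhb1 required this. The 2 primary cholangiocyte arrays lie far apart for Vim and Axl.

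Promoters were searched for 8 short motifs on both strands, in the 250 bases before the start of each gene in the RefSeq table (GRCm38.p6), with 14821 of the genes tested matched. Those of 3 genes that were higher and 2 that were lower in culture are shown: Vim, Axl and Ankrd1, a YAP target, among the higher genes described here, and 2 claudins among the lower ones. They were picked after their values had been seen. Capitals mark the matches, which are GGAATG (the core bound by TEAD factors, partners of YAP) and CCAAT, each also as its reverse complement.
Vim, chr2:13574061-13574310, plus strand: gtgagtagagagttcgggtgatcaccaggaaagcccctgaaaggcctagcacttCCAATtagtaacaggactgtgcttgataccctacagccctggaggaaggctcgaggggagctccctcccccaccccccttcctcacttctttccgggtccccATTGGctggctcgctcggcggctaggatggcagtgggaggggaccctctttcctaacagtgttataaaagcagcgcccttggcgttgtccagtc
Axl, chr7:25788734-25788983, minus strand: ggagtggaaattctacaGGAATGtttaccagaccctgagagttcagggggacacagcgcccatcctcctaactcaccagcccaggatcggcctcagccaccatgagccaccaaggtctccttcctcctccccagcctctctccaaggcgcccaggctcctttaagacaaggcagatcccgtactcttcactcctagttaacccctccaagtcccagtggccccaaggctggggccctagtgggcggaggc
Ankrd1, chr19:36119845-36120094, minus strand: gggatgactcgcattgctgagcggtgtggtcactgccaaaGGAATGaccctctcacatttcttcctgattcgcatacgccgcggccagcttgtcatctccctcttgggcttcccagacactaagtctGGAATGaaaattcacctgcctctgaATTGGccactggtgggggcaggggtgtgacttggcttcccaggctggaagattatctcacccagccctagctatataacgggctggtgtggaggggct
Cldn7, chr11:69964529-69964778, plus strand: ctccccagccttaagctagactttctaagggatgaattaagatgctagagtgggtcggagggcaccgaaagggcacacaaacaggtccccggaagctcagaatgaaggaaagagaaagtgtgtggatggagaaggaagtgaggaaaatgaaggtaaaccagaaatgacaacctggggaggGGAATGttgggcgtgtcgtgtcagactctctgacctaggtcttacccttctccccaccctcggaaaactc
Cldn3, chr5:134985964-134986213, plus strand: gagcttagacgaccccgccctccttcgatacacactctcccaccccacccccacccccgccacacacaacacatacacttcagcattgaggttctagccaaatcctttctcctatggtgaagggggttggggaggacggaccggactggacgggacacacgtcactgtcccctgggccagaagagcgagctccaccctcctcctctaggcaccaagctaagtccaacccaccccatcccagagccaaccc

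Ankrd1 held GGAATG at 2 places, Axl and Cldn7 at 1, and Vim and Cldn3 at none. Among the 256 genes past every group difference and higher, 155 had a promoter, and GGAATG was found in 13.5% of these. It was found in 10.9% of the 101 promoters of the genes that were lower, and in 11.4% of all promoters of genes tested. The AP-1 motif TGANTCA was found in 2.58%, 3.96% and 5.61% of the same 3 sets, and the CHR motif TTTGAA of cell cycle genes in 7.74%, 9.90% and 12.7%. CCAAT was found in 40.0%, 38.6% and 35.8%, the C/EBP motif TTGCNNAA in 11.6%, 8.91% and 8.44%, and the E2F motifs TTTCGCGC or TTTGGCGC in 1.29%, 0.990% and 1.03%. The liver motif of HNF1 was in no promoter of either set and in 0.385% of all, and HNF4 (CAAAGTCCA) was in 1.94%, none and 0.412%. These shares are descriptions of letters in a window and no test was made of them. The median number of CpG dinucleotides was 15 in the higher set, 11 in the lower set and 12 in all.

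Some genes were read on all cultured arrays and on no primary array. The 8 of these with the largest folds at the bound were Ebf3, Foxl1, Foxf2, Hoxb13, Twist2, Dlx2, Tbx15 and Gjc1. Foxl1 itself stood at -1.54, 1.05, 2.23 and 2.56 in undifferentiated cells, at 0.74, 1.65, -1.99 and 1.47 in the hepatocyte condition and at -4.20, 0.66 and 2.51 in the cholangiocyte condition. Primary hepatocytes gave -8.73, -8.09, -8.39 and -6.83 and primary cholangiocytes -7.85 and -9.93. It was above background on all 11 cultured and on none of the 6 primary arrays, so its fold is a bound. It was at least 147-fold higher in cultured cells (adjusted p = 4.18e-06), with the lowest cultured value in replicate 1 of the cholangiocyte condition. For folds called at least, groups with no array above background were put at the lowest signal well above background of each array. Dim arrays of other groups kept their own signal, so the folds of Irx5, Hoxb4, Zeb2, Igf2bp1 and Kit given below are not strict bounds. These folds compare means over both primary types and need not hold against each.

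In all, 38 genes with a symbol had this pattern. Ebf3, a helix-loop-helix factor of mesenchyme and neurons, stood at -0.10, -0.23, 0.71 and 1.30 in undifferentiated cells, at 0.15, 1.78, 0.98 and 1.98 in the hepatocyte condition and at -1.13, 0.17 and 0.17 in the cholangiocyte condition. Primary hepatocytes gave -8.65, -8.06, -8.32 and -7.73 and primary cholangiocytes -9.41 and -9.65. Ebf3 was at least 154-fold higher (adjusted p = 8.02e-11). Foxf2, a forkhead factor of gut and liver mesenchyme, was at least 91.9-fold higher (adjusted p = 2.26e-12), with cultured arrays between -1.10 and 0.51. Twist2, which drives mesenchymal fate, was at least 38.3-fold higher (adjusted p = 7.87e-09). Its highest values, -0.65, 1.06 and 1.43, were those of the cholangiocyte condition. Dlx2, a homeobox factor of forebrain and neural crest, was at least 29.1-fold higher, Tbx15, a T-box factor of skin and skeleton, at least 29.0-fold, and Gli3, a zinc finger effector of Hedgehog signalling, at least 26.1-fold. Gjc1, a connexin of gap junctions, was at least 26.6-fold higher.

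Some factors were also detected in primary cells. Nr2f1, an orphan nuclear receptor of the developing brain, was well above background on every array and was higher by 5.53 ± 0.31 (adjusted p = 4.86e-09), with cultured arrays between -0.49 and 1.63 and primary arrays between -5.78 and -3.94. Irx3 and Irx5, neighbouring homeobox genes, were higher by 4.59 ± 0.30 (adjusted p = 2.48e-08) and at least 24.6-fold (adjusted p = 7.67e-07), and the other 4 Iroquois genes did not pass. Of 40 forkhead genes tested, 15 were higher and 15 lower, and 8 and 9 of these were same-side, beside 25.6%, 28.1%, 15.1% and 13.7% of all genes. The liver factor Foxa2 was higher by 0.89 ± 0.15 (adjusted p = 0.00022). Normexp background correction pulled in these dim values: the difference was 4.76 for Foxl1, 4.56 for Ebf3, 3.81 for Foxf2 and 2.11 to 2.86 for Twist2, Dlx2, Tbx15, Gli3, Gjc1 and Irx5, all still past the threshold.

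Hox genes, which give cells their position along the body axis, included members of this kind. Of 30 Hox cluster genes tested, 15 were higher in cultured cells, beside 25.6% of all genes, and all 15 were same-side, beside 15.1%. Of the other Hox genes 1 was lower and 14 did not pass. Across the 30 genes, 14 were above background on no primary array. Those met the filter only through cultured arrays, which favours a higher call, so these counts are a description only. Hoxb13 stood at -0.32, -0.01, 0.19 and -2.84 in undifferentiated cells, at 0.18, -0.61, 0.35 and -3.0 in the hepatocyte condition and at -1.15, 0.44 and -1.59 in the cholangiocyte condition. Primary hepatocytes gave -8.25, -7.84, -8.09 and -7.53 and primary cholangiocytes -9.23 and -9.53, all below background, so Hoxb13 was at least 66.0-fold higher (adjusted p = 6.76e-08). Hoxb7, above background on 2 of 6 primary arrays, was higher by 6.34 ± 0.77 (adjusted p = 1.05e-05), a size that rests on dim signals. Hoxb4 was at least 42.3-fold higher, Hoxb8 at least 8.53-fold and Hoxb3 at least 7.32-fold. Replicate 4 of undifferentiated cells and of the hepatocyte condition held the lowest cultured values of these Hoxb genes, all still above the primary arrays. These 5 of the 30 were the only ones higher with no overlap between the sides, beside 4.85% of all genes. For Hoxa10, replicate 4 of the same 2 groups stood at -9.43 and -9.22, inside the primary range of -9.68 to -7.62. Normexp correction left differences of 3.29 for Hoxb13, 3.37 for Hoxb7, 2.70 for Hoxb4, 1.23 for Hoxb3 and 1.19 for Hoxb8. Hoxa13, the exception, was lower by -1.81 ± 0.55 (adjusted p = 0.0128), but without primary cholangiocyte replicate 3 its adjusted p was 0.154. The 30 genes had a median difference of 2.12, or 1.07 with groups dim on all their arrays put at their bounds, against -0.16 over all genes. This family was picked out after its values had been seen.

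**Figure D3:**
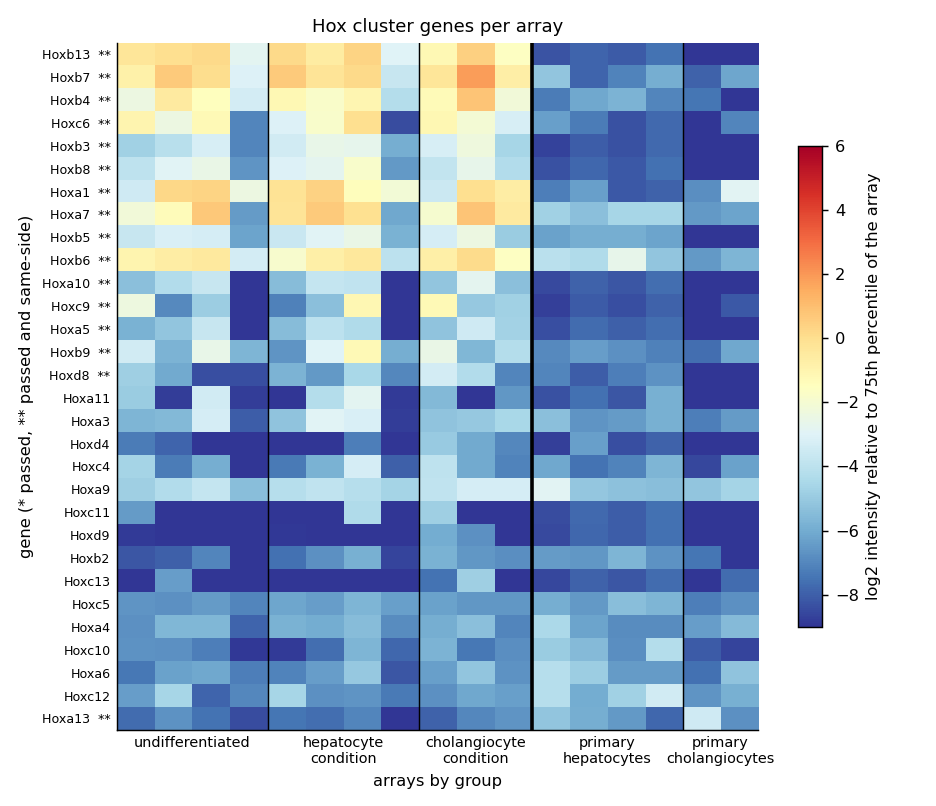
Heat map of 30 Hox cluster genes (rows, ordered by cultured minus primary difference) on 17 arrays (columns), coloured by log2 intensity over the 75th percentile of each array; the thick line parts cultured from primary arrays. The upper 15 rows, led by Hoxb13 and Hoxb7, are warmer in most cultured arrays. Replicate 4 of the first 2 groups is mostly paler than the rest, and for some genes, such as Hoxa10, as cold as primary arrays.

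Most mesenchymal transition genes tested were higher in culture. Of 22 tested, 18 were higher, beside 25.6% of all genes, 12 of them same-side, beside 15.1% of all genes, and none was lower. The counts of the lists below stand beside the same shares, and beside 28.1% lower and 13.7% same-side and lower. Timp1, an inhibitor of matrix metalloproteinases, was at least 91.4-fold higher (adjusted p = 5.03e-12) over the mean of both primary types. Its values of 5.10 to 5.82 in the hepatocyte condition were above the other cultured arrays at 2.51 to 3.42. Cholangiocytes stood nearer, at 0.87 and 0.36, and the smallest of the 6 group differences was 2.32. Zeb2, a repressor of E-cadherin, was at least 35.0-fold higher (adjusted p = 9.44e-08), Zeb1, its relative, was higher by 4.07 ± 0.18 (adjusted p = 7.88e-10) and Snai1, a further repressor, by 2.73 ± 0.37 (adjusted p = 3.11e-05). For Zeb1 the gap to primary hepatocytes was small, with the smallest of the 6 group differences at 0.67. For Snai1 the cholangiocyte condition, at -6.46, -4.89 and -5.11, overlapped the primary arrays at -7.27 to -5.80. It passed against neither hepatocytes nor cholangiocytes (limma adjusted p = 0.159 and 0.203), and Snai1 was above background on 3 of 6 primary arrays. Twist1 (-0.26) and Mmp2 (0.88) did not pass. Cdh1, which encodes E-cadherin and which the list holds as well, was higher by 0.71 ± 0.20 (adjusted p = 0.00691): cultured arrays lay between 2.86 and 3.96, above hepatocytes at 0.22 to 1.05 and below cholangiocytes at 4.53 and 4.61. The list's median was 2.94 in all slides together and between 2.63 and 4.05 within the 4 slides.

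Genes of the actin cytoskeleton were higher in 29 of 36, with 16 same-side, beside 25.6% and 15.1% of all genes, and 2 were lower. Fhl2, a LIM protein, was at least 83.0-fold higher (adjusted p = 5.03e-12) over the mean of both primary types. The gap to cholangiocytes was smaller: they stood at 1.28 and 1.63, against 3.25 to 4.66 on cultured arrays. Flna, the actin cross-linker filamin A, was higher by 4.93 ± 0.22 (adjusted p = 7.9e-10), and Msn, moesin, which ties actin to the membrane, by 5.17 ± 0.37 (adjusted p = 6.32e-08). Flna lay between 6.10 and 6.76 on cultured arrays, against -2.23 to -1.46 in hepatocytes and 3.92 and 5.58 in cholangiocytes. Of 24 YAP and TEAD targets, 18 were higher, 8 of them same-side, and 1 was lower. Ankrd1 was higher by 7.16 ± 0.46 (adjusted p = 2.3e-08), but its cultured range of 4.14 to 5.80 was nearer to primary cholangiocytes, at 1.44 and 4.01, than to hepatocytes, at -8.45 to -5.41. Only 1 hepatocyte array was above background for Ankrd1.

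Matrix genes were divided. Of 36 matrix and integrin genes, 23 were higher, with 8 same-side, and 4 were lower (2 with quantile normalization), all same-side. Spp1, the secreted phosphoprotein osteopontin, was higher by 7.06 ± 0.33 (adjusted p = 1.08e-09), Loxl2, a cross-linking enzyme, by 2.98 ± 0.20 (adjusted p = 2.99e-08) and Col6a1, a collagen VI chain, by 5.46 ± 0.75 (adjusted p = 3.24e-05). The fibrillar collagens of fibroblasts did not follow Vim. Col1a1 stood at -5.15, -4.10, -3.92 and -4.41 in undifferentiated cells, at -4.41, -2.02, -4.86 and -5.14 in the hepatocyte condition and at -6.21, -5.68 and -4.94 in the cholangiocyte condition. It stood at -8.75, -6.52, -6.11 and -3.75 in primary hepatocytes and at -1.82 and -7.51 in primary cholangiocytes. The sides overlapped, the difference of 0.77 ± 0.86 did not pass (adjusted p = 0.47), and it was 2.19 without primary cholangiocyte replicate 3 and -0.65 without replicate 4. Col1a2 was lower by -1.66 ± 0.41 (adjusted p = 0.0038) and Col3a1 by -2.23 ± 0.77 (adjusted p = 0.0245). Without primary cholangiocyte replicate 3, Col3a1 no longer passed (adjusted p = 0.297). Pdgfra, a receptor of fibroblasts and stellate cells, was not above background on any cultured array. Lama3, a laminin chain of epithelial basement membranes, was lower by -2.47 ± 0.41 (adjusted p = 0.000166).

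Of the lists examined, ribosome biogenesis had the largest share of same-side genes. Of 24 tested, 21 were higher, beside 25.6% of all genes, 17 of these were same-side, beside 15.1% of all genes, and none was lower. The steps were small: Nop56, a core protein of nucleolar ribonucleoproteins, was higher by 1.72 ± 0.16 (adjusted p = 9.48e-07) and Npm1, nucleophosmin, by 1.45 ± 0.12 (adjusted p = 1.74e-07). Npm1 lay between 6.30 and 7.18 on cultured arrays, against 4.6 to 4.79 in hepatocytes and 5.61 and 6.26 in cholangiocytes, with no overlap. The median difference was 0.98, against -0.16 over all genes.

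Cell cycle genes were higher in 44 of 48, beside 25.6% of all genes, and 6 of these were same-side, a share near the 15.1% of all genes. Mki67, a mark of cycling cells, stood at 2.84, 2.55, 2.69 and 3.47 in undifferentiated cells, at 1.85, 0.53, 1.11 and 0.45 in the hepatocyte condition and at 3.79, 3.19 and 3.43 in the cholangiocyte condition. Primary hepatocytes gave -4.28, -3.96, -2.21 and -5.36, but primary cholangiocytes gave 2.78 and 0.59, inside the cultured range. Its difference of 3.58 ± 0.44 passed (adjusted p = 1.2e-05) without Mki67 being same-side. Mcm6, a subunit of the replication helicase, was same-side and higher by 3.0 ± 0.19 (adjusted p = 1.49e-08), with cultured arrays at 3.84 to 5.35 and cholangiocytes at 3.16 and 2.64. Of 12 inhibitors and cyclins, 9 were higher, 5 of them same-side. Cdkn2a, which encodes the cell cycle inhibitors p16 and p19, was above background on all cultured arrays, on no hepatocyte array and on both cholangiocyte arrays, at 0.20 and 2.10, and was at least 33.7-fold higher (adjusted p = 2.73e-09). Cdkn1a, the gene of p21, was higher by 4.38 ± 0.25 (adjusted p = 5.58e-09) and Ccnd1, cyclin D1, by 3.82 ± 0.31 (adjusted p = 2.43e-07), both with the hepatocyte condition nearest to cholangiocytes. Cultured arrays overlapped cholangiocytes for all 3 genes: 1.59 to 3.65 against 1.40 and 2.25 for Cdkn1a, 3.80 to 6.85 against 3.40 and 5.16 for Ccnd1, and from 0.55 for Cdkn2a. The hepatocyte condition did not pass against cholangiocytes for Cdkn1a, Ccnd1 or Cdkn2a (limma adjusted p = 0.663, 0.705 and 0.625).

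**Figure D4:**
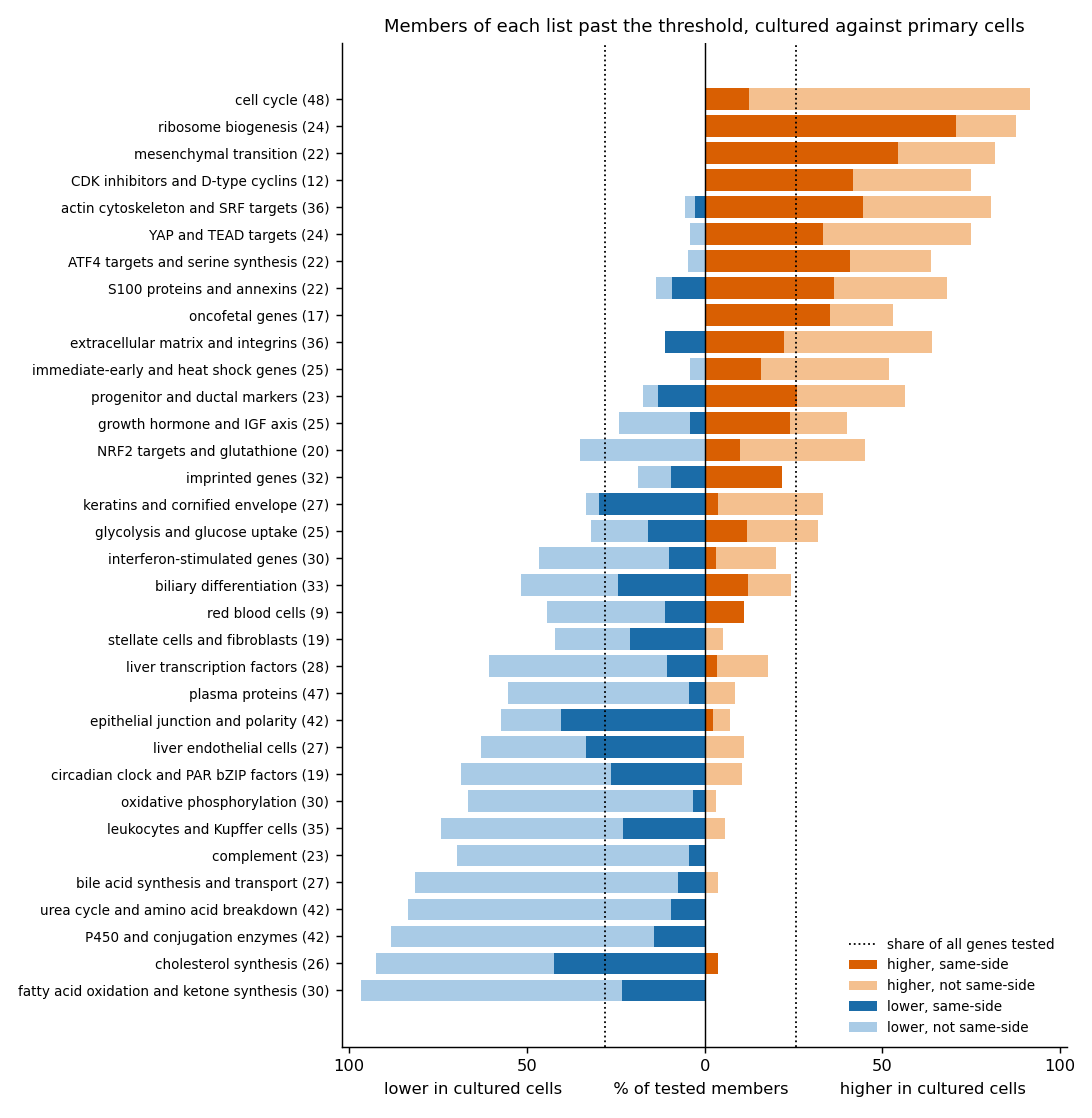
Share of tested members of each list (number tested in brackets) that passed with cultured cells higher (right, orange) or lower (left, blue); dark parts are same-side genes, and dotted lines give the shares over all genes, 25.6% and 28.1%. Dark parts dominate for ribosome biogenesis and mesenchymal transition on the right and for the junction genes on the left, while lists of hepatocyte metabolism are mostly pale.

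Oncofetal genes, used by fetal liver and by tumours, were higher in 9 of 17, and 6 of these were same-side. Igf2bp1, which binds fetal growth transcripts, was at least 170-fold higher (adjusted p = 7.18e-10), with cultured arrays at -0.75 to 1.57. Hmga2, a chromatin protein of embryonic cells, was higher by 5.65 ± 0.36 (adjusted p = 1.82e-08) and Igf2bp2 by 3.80 ± 0.18 (adjusted p = 9.48e-10). Igf2bp2 lay between 0.53 and 1.53 on cultured arrays, just above cholangiocytes at -0.18 and 0.39. Igf2bp3, a relative of Igf2bp1, was above background on 8 of 11 cultured arrays. Afp, fetal alpha-fetoprotein, and H19, an imprinted RNA, did not pass, at 1.38 ± 1.22 and 2.36 ± 2.06. The spread of H19 was wide, with 6.79 and 6.04 in replicates 1 and 3 of the hepatocyte condition and -5.39 and -5.63 in replicates 2 and 4. Alb was high in the same replicates 1 and 3, at 7.63 and 7.58. Of 32 imprinted genes, a list added after values were seen, 7 were higher, all same-side, and 6 lower, which is no more than the 25.6% and 28.1% of all genes. Peg3, a zinc finger gene, was higher by 5.19 ± 0.37 (adjusted p = 5.72e-08) and Ndn, necdin, by 3.54 ± 0.48 (adjusted p = 2.57e-05).

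Of 23 progenitor and ductal markers, 13 were higher and 4 lower, with 6 and 3 same-side. Besides Foxl1 and Spp1, Sox9, a factor of ductal and progenitor cells, was higher by 3.05 ± 0.41 (adjusted p = 2.75e-05), with cultured arrays between -0.13 and 1.82. Primary cholangiocytes stood at -3.63 and -0.54, and primary hepatocytes between -3.74 and -2.03, so Sox9 did not set replicate 3 of the cholangiocytes apart from hepatocytes. Ncam1, an adhesion molecule of reactive ductules, was higher by 6.40 ± 0.35 (adjusted p = 4.86e-09), or by 3.86 with the mean of all its probes. Only 1 hepatocyte array was above background for Ncam1, so the size rests partly on dim signals. Kit, the stem cell factor receptor, went the other way: it was above background on 1 cultured array and on all 6 primary arrays, and was at least 62.1-fold lower (adjusted p = 1.03e-07). Of 22 S100 and annexin genes, 15 were higher and 3 lower, with 8 and 2 same-side, and S100a4, a calcium-binding protein of motile cells, was higher by 3.46 ± 0.29 (adjusted p = 3.25e-07). Of 22 ATF4 targets and serine synthesis genes, 14 were higher, 9 of them same-side, and 1 was lower (4 without primary cholangiocyte replicate 3). Slc3a2, the heavy chain of amino acid transporters, was higher by 1.69 ± 0.27 (adjusted p = 0.00011). Psat1, of serine synthesis, was higher by 4.42 ± 0.26 (adjusted p = 9.93e-09), and its lowest cultured value of 3.83 lay below the higher cholangiocyte value of 3.95. Pkm, pyruvate kinase of growing cells, was higher by 4.99 ± 0.16 (adjusted p = 2.85e-11), with cultured arrays at 5.17 to 5.68 near cholangiocytes at 5.36 and 4.27 and far from hepatocytes at -4.11 to -3.54. In bulk samples fewer cells of a type and less RNA per cell cannot be told apart.

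Among same-side genes of the same kind and ranking, the lower genes began with Slc16a11 (6.68), Plekhb1 (5.85), Susd4 (5.13) and Cldn3 (5.06). Cldn3, a sealing claudin of tight junctions, stood at -0.43, -1.25, -3.64 and 0.79 in undifferentiated cells, at -1.33, -1.44, -0.54 and 0.36 in the hepatocyte condition and at -6.16, -5.13 and -7.24 in the cholangiocyte condition. Primary hepatocytes gave 4.17, 4.79, 4.52 and 4.32 and primary cholangiocytes 4.03 and 4.62. Cldn3 was lower by -7.07 ± 0.56 (adjusted p = 1.68e-07), and the cholangiocyte condition was the farthest from both primary types. Prss8, a membrane-anchored protease of tight epithelia, stood at -4.89, -4.18, -4.31 and -6.48 in undifferentiated cells, at -4.59, -4.79, -3.99 and -5.68 in the hepatocyte condition and at -4.71, -4.31 and -4.17 in the cholangiocyte condition. It stood at -0.62, 0.57, -0.85 and -0.18 in primary hepatocytes and at 0.92 and 0.85 in primary cholangiocytes. No cultured array overlapped a primary array, as the ranking required, and arrays of the 3 cultured groups overlapped each other. Prss8 was lower by -5.01 ± 0.36 (adjusted p = 6.54e-08), with -4.95, -5.63, -5.66 and -4.26 within the 4 slides.

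Scnn1a, the sodium channel subunit that such proteases activate, was lower by -6.33 ± 0.25 (adjusted p = 1.9e-10), and its 4 arrays of the hepatocyte condition, at -2.14 to -0.35, were nearer to the primary 1.63 to 3.69 than the other cultured arrays at -5.24 to -4.32. Cldn7 was lower by -5.31 ± 0.18 (adjusted p = 3.85e-11), with cultured arrays at -4.69 to -3.45, hepatocytes not far above at -2.90 to -2.40 and cholangiocytes at 5.18 and 5.24. Map7, a microtubule protein of epithelia, was lower by -5.07 ± 0.30 (adjusted p = 8.2e-09), Tjp3, a scaffold of tight junctions, by -4.28 ± 0.53 (adjusted p = 1.17e-05) and Dsc2, a desmosomal cadherin, by -5.94 ± 0.61 (adjusted p = 1.95e-06). Esrp1 and Esrp2, splicing factors of epithelial cells, were lower by -3.45 ± 0.27 (adjusted p = 1.31e-07) and -1.93 ± 0.21 (adjusted p = 3.87e-06). For Esrp1, hepatocytes at -2.64 to -1.34 overlapped cultured arrays at -4.84 to -2.42, and the smallest of the 6 group differences was 0.88. Krt23, a keratin of the liver and of ducts, was lower by -6.84 ± 0.95 (adjusted p = 3.43e-05), with a cultured range of -9.56 to -0.71.

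Of 42 junction and polarity genes, a list added after values were seen, 24 were lower, beside 28.1% of all genes, 17 of these were same-side, beside 13.7% of all genes, and 3 were higher, or 6 with median scaling and 5 without primary cholangiocyte replicate 3. The higher ones included Tjp1, a scaffold of tight junctions, and Cdh1, neither of them same-side. Tjp1 lay between 2.59 and 3.70 on cultured arrays, between 0.61 and 0.74 in primary hepatocytes, and at 3.60 and 3.23 in primary cholangiocytes. Of 22 claudins, 10 were lower, 7 of them same-side, and 2 were higher. The junction median was -0.80, and it was 0.13, -0.58, -1.18 and -1.20 within slides 1 to 4, of which slides 1 and 2 held no cholangiocyte array. Epcam, an epithelial adhesion molecule, lay between -7.35 and -2.79 on cultured arrays, at 3.06 and 2.22 in cholangiocytes and between -7.76 and -6.17, below background, in hepatocytes, so it was not same-side.

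**Figure D5:**
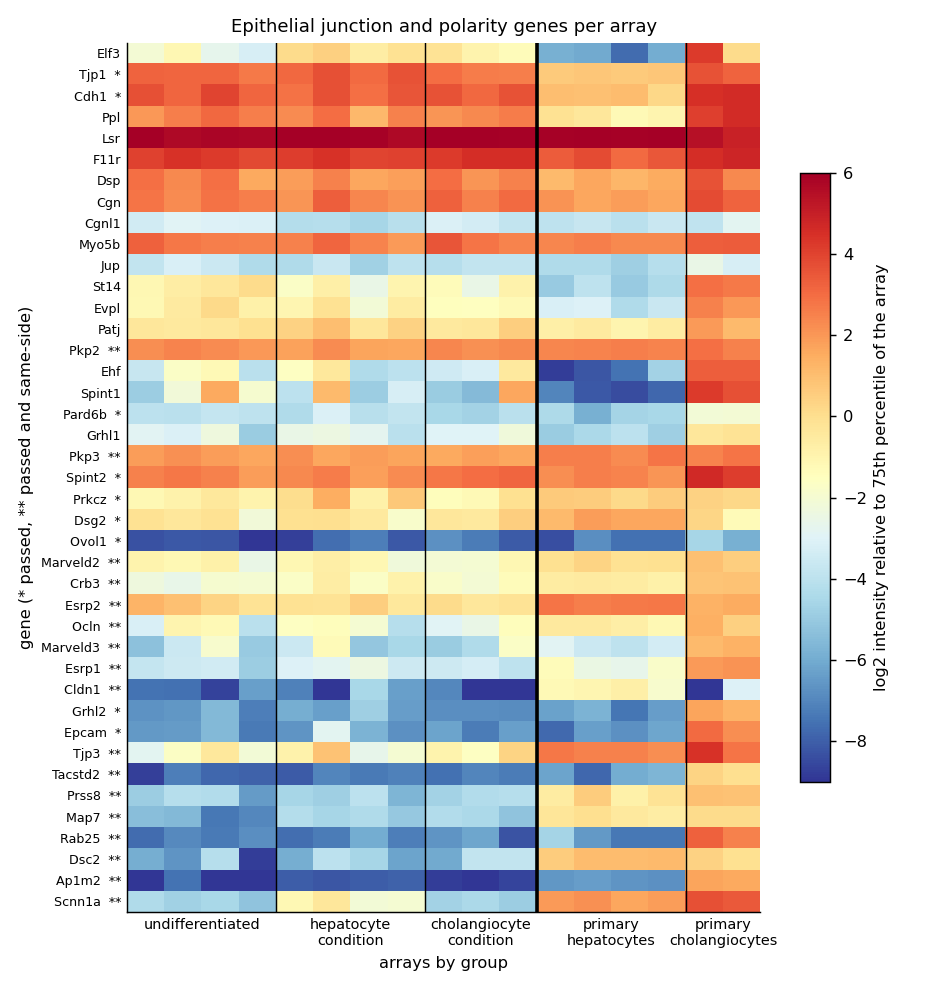
Heat map of epithelial junction and polarity genes (rows, 1 gene of the list left out, ordered by cultured minus primary difference) on 17 arrays (columns), coloured by log2 intensity over the 75th percentile of each array; the thick line parts cultured from primary arrays. The lowest rows, from Tjp3 to Scnn1a, are colder in cultured arrays, while Tjp1 and Cdh1 stay warm there.

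The genes ranked above Cldn3, and others of that ranking outside the junction list, had varied roles. Slc16a11, a monocarboxylate transporter of liver, stood at -4.93, -5.50, -5.52 and -6.21 in undifferentiated cells, at -5.08, -6.50, -4.16 and -5.64 in the hepatocyte condition and at -5.58, -4.69 and -5.65 in the cholangiocyte condition. Primary hepatocytes gave 2.0, 2.59, 2.54 and 1.77 and primary cholangiocytes 1.52 and 1.24. The 2 sides were over 5 log2 units apart on every array, and the difference was -7.20 ± 0.32 (adjusted p = 6.84e-10), or 147-fold lower. Plekhb1, a membrane-binding protein, was lower by -6.46 ± 0.32 (adjusted p = 1.96e-09), Susd4, a complement regulator, by -7.25 ± 0.42 (adjusted p = 7.24e-09) and Stra6l, a relative of the vitamin A transporter Stra6, by -6.74 ± 0.47 (adjusted p = 4.74e-08). Smpdl3a, a phosphodiesterase, was lower by -5.23 ± 0.40 (adjusted p = 1.3e-07) and Ctf1, the cytokine cardiotrophin, by -4.04 ± 0.28 (adjusted p = 5.11e-08). Urah, an enzyme of urate breakdown, was lower by -8.20 ± 0.68 (adjusted p = 2.8e-07), with 1.63 and 2.88 in replicates 1 and 3 of the hepatocyte condition against 4.36 and 4.40 in cholangiocytes, its nearest primary arrays. Of 12 genes with a symbol read on all 6 primary and no cultured array, Homer2, a scaffold protein, was at least 113-fold lower (adjusted p = 2.59e-09), Rnf186, a ubiquitin ligase, at least 65.1-fold (adjusted p = 9.05e-08) and Sirpa, the receptor of CD47, at least 23.3-fold (adjusted p = 8.14e-09). These bounds depend on the background correction: with normexp the differences were -3.67 for Homer2, -3.59 for Rnf186 and -1.83 for Sirpa, smaller than the bounds, and all 3 still passed. The same held for the bounds of Igf2bp1, Timp1, Fhl2, Cdkn2a, Zeb2 and Kit, with normexp differences of 4.42, 5.13, 5.06, 3.59, 2.85 and -3.35.

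Sterol synthesis was the metabolic list with the most same-side genes. Of 26, 24 were lower, 11 of them same-side, and 1 was higher. Dhcr7, the last enzyme of cholesterol synthesis, was lower by -2.92 ± 0.29 (adjusted p = 1.8e-06), with cultured arrays at -3.09 to -0.38, hepatocytes at 1.55 to 2.91 and cholangiocytes at 0.77 and, just inside the cultured range, -0.39. The lists of hepatocyte function were lower in most members. Fatty acid oxidation and ketone genes were lower in 29 of 30, with 7 same-side, P450 and conjugation genes in 37 of 42, with 6, and urea cycle and amino acid genes in 35 of 42, with 4. Bile acid genes were lower in 22 of 27, with 2 same-side, plasma proteins in 26 of 47, with 2, and complement genes in 16 of 23, with 1. In the other direction, 1 bile acid gene and 4 plasma protein genes were higher. Oxidative phosphorylation genes were lower in 20 of 30, with 1 same-side, but in 7 with median scaling, and 1 was higher. Beside the 13.7% of all genes that were same-side and lower, the share was above it for fatty acid oxidation, near it for P450 and conjugation genes and below it for the other lists of hepatocyte function.

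A few members of these lists had all cultured group means below both primary types. None of those named here was in the stricter set that passed every group difference. Por, the electron donor of P450 enzymes, was lower by -2.33 ± 0.29 (adjusted p = 1.11e-05), with cultured arrays at 3.38 to 5.18 and primary arrays at 6.16 to 7.30. Slc25a13, the mitochondrial aspartate carrier that feeds the urea cycle, was lower by -2.41 ± 0.26 (adjusted p = 3e-06), and Gstt3, a glutathione transferase, by -3.51 ± 0.46 (adjusted p = 1.92e-05). Bdh1, a ketone body enzyme, was lower by -6.50 ± 0.99 (adjusted p = 8.07e-05) and Ehhadh, of peroxisomal fat oxidation, by -4.70 ± 0.56 (adjusted p = 8.78e-06). F5, coagulation factor V, was lower by -7.20 ± 1.01 (adjusted p = 3.89e-05). Against cholangiocytes alone, Bdh1 passed only in the hepatocyte condition, F5 only in the cholangiocyte condition and Ehhadh in no cultured group. Ehhadh lay between -4.15 and -0.73 on cultured arrays, against -0.09 and -0.19 in cholangiocytes and 4.34 to 5.67 in hepatocytes.

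Among regulators, 17 of 28 liver transcription factors were lower and 5 higher (3 without primary cholangiocyte replicate 4), with 3 and 1 same-side. Tbx3, a T-box factor of hepatoblasts, was lower by -6.78 ± 1.75 (adjusted p = 0.00472), but its cultured arrays split: 1 array of each group lay between -0.82 and -0.22 and the other 8 between -9.57 and -5.49, against 1.61 to 2.49 in hepatocytes and -0.60 and -1.62 in cholangiocytes, which the first 3 overlap. Of 19 clock genes, 13 were lower, 5 of them same-side, and 2 were higher. Per2 and Bhlhe40 were lower by -2.04 ± 0.25 (adjusted p = 1.11e-05) and -1.74 ± 0.27 (adjusted p = 9.54e-05). The sources used here do not give the hours at which cells were taken. In the growth hormone and IGF list 10 of 25 were higher and 6 lower. Igf1r, the IGF1 receptor, was higher by 4.73 ± 0.43 (adjusted p = 6.73e-07), with cultured arrays at 1.22 to 2.93 just above cholangiocytes at 0.93 and 0.74. In hepatocytes it was above background on only 1 array. Igfbp2, a binding protein made by hepatocytes, was lower by -6.40 ± 0.49 (adjusted p = 1.26e-07). Cholangiocytes stood at -5.35 and -1.34, the first inside the cultured range of -6.28 to -3.73, and no cultured group passed against them.

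The remaining lists were mixed. Of 27 keratin and cornified envelope genes, 9 were higher and 9 lower, near the 25.6% and 28.1% of all genes, and 8 of the lower ones but 1 of the higher ones were same-side. Biliary differentiation genes were lower in 17 of 33 and higher in 8, with 8 and 4 same-side. Immediate-early and heat shock genes were higher in 13 of 25, with 4 same-side, and 1 was lower. Interferon-stimulated genes were lower in 14 of 30, with 3 same-side, and higher in 6. NRF2 and glutathione genes (9 higher and 7 lower of 20) and glycolysis genes (8 and 8 of 25) went both ways, and 3 NRF2 genes were lower with median scaling and 4 without primary cholangiocyte replicate 4.

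Markers of other cells moved with the comparison, and their part in the gene lists above was not tested. Leukocyte and Kupffer cell genes were lower in culture in 26 of 35, with 8 same-side, and higher in 2. Their summed level, in multiples of the 75th percentile, ran from 17.5 to 58.4 on cultured arrays, against 60.4 to 108 in primary hepatocytes and 46.0 to 46.7 in primary cholangiocytes. Lyz2 and Laptm5, of macrophages and other leukocytes, and Cdh5 and Lyve1, of endothelium, were below background on all cultured arrays, while Ptprc, a pan-leukocyte gene, did not differ past the threshold (0.21 ± 0.40). Endothelial genes were lower in 17 of 27, with 9 same-side, and higher in 3. They summed to 5.57 to 19.3 on cultured arrays, against 21.7 to 27.7 in primary hepatocytes and 8.30 to 9.63 in primary cholangiocytes. Stellate cell and fibroblast genes were lower in 8 of 19, or 5 without undifferentiated cells in the mean, and 1 was higher. They summed to 20.9 to 83.1, against 7.83 to 10.1 in hepatocytes and 46.4 to 106 in cholangiocytes. Pdgfrb, a stellate cell receptor, was above background on 1 of 11 cultured and 1 of 6 primary arrays. Red blood cell genes, of which 1 of 9 was higher and 4 lower, summed to at most 0.121 on cultured arrays, against 14.7 to 20.9 in primary hepatocytes and at most 0.0877 in cholangiocytes. Alas2, of heme synthesis in red cells, was below background on all arrays but those of primary hepatocytes.

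The cultured groups were not equally far from primary cells. Among the same-side genes that passed and were higher, the group nearest to primary levels was the hepatocyte condition for 2113, undifferentiated cells for 1118 and the cholangiocyte condition for 695. Among those that were lower, it was the cholangiocyte condition for 1518, the hepatocyte condition for 1395 and undifferentiated cells for 650. These are counts of group means with no test.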

How the data were processed

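RNA of liver samples and sorted cells was purified (Trizol, RNeasy), turned into amplified cDNA by the WT-Ovation Pico method and labelled with Cy3, per the labels' protocols. The scanner program was Agilent Feature Extraction, version 10.5.1.1 per the file headers and 9.53 per the submitters' processing notes. The deposited intensity is the processed signal of that program, background-subtracted and with no scaling between arrays; the mean and background intensities of the same deposited files served for normexp (offset 50). A deposited table of the authors' own comparisons was not used here.

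Of 44397 spots per array, 1377 controls were left out. Spots of a probe were averaged, and 143 probes with a non-uniform outlier spot were dropped; no spot was saturated. Values are log2 of the intensity minus that of the 75th percentile of the array. Probes well above background on at least 2 arrays were kept. Names were updated with RefSeq tables (GRCm38.p6): 26412 probes matched by accession, 3854 by symbol and 735 through an older symbol, and the other 8428 carry the array's own name. The probe with the highest mean stood for a gene, which gave 25971 genes of 31693 names. Probes of 139 genes passed in opposite directions, none of them named here.

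Group means of all 17 arrays entered a single fit (lmFit and eBayes of limma 3.58.1, R 4.3.3, with statmod 1.5.0 for blocks), two-sided, with Benjamini-Hochberg adjustment. Passing every group difference means that the largest of the 6 p-values, set to 1 unless the gene was same-side, was adjusted over all genes. The model was tested on simulated data. Unadjusted p under 0.05 were found for 15294 genes. Figures were drawn with matplotlib 3.10.9.

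The members and lists were chosen with earlier results of these data known. Genes were named by rule. They were 10 defining genes and, per direction, 12 same-side genes measured on every array. These 12 had no overlap between the sides and the largest smallest group differences. Added to them were 8 per direction read on 1 side only, and up to 4 per list and direction with 2 that did not pass. The text gives a part of them. The 2 added lists, the 5 symbol families, and genes outside the rule (Gli3, Irx5, the Hox genes other than Hoxb13, Zeb1, Snai1, Timp1, Tuba1a, Ndn, Igf2bp2, Cdkn1a, Npm1, Scnn1a, Tjp1, Tjp3, Dsc2, Cdh1, Esrp1, Esrp2, Igf1r, Col1a1, Ptprc, Alas2) were chosen after their values were seen. Replicate numbers were checked as pairs: residuals of arrays with 1 number correlated at -0.00 on average, and 5 of 28 pairs were over 0.1, so the numbers were not used as pairs. Among pairs that shared neither number nor slide, 8 of 69 were over 0.1, up to 0.44. Some cultured arrays moved together under different numbers. Tbx3 was high in undifferentiated replicate 3, hepatocyte condition replicate 2 and cholangiocyte condition replicate 3 (-0.82, -0.22 and -0.59). Whether such arrays share a source was not tested. Some results are not reported here.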

Additional observations from a re-analysis of the deposited data

Results flagged for a closer look

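Within a group of 4 arrays, the lowest or highest array was set apart for 11 of 336 combinations of gene and group examined, where chance gives about 1 in 20. Spp1 stood at 3.87 in undifferentiated replicate 3, with the nearest other array of its group at 4.54. Hoxb13 stood at -2.84 in undifferentiated replicate 4, with the nearest other array of its group at -0.32. Lgals1 stood at 6.87 in undifferentiated replicate 4, with the nearest other array of its group at 6.09. Anxa8 stood at 4.21 in undifferentiated replicate 4, with the nearest other array of its group at 5.74. Pdgfrb stood at -6.87 in hepatocyte condition replicate 2, with the nearest other array of its group at -9.24. Cdkn1a stood at 2.48 in undifferentiated replicate 2, with the nearest other array of its group at 3.11. Kit stood at -9.48 in undifferentiated replicate 3, with the nearest other array of its group at -8.50. Cdh1 stood at 0.22 in primary hepatocyte replicate 4, with the nearest other array of its group at 0.95. Susd4 stood at -6.51 in hepatocyte condition replicate 2, with the nearest other array of its group at -4.54. Gstt3 stood at 0.86 in hepatocyte condition replicate 1, with the nearest other array of its group at -0.94. Gstt3 stood at 4.61 in primary hepatocyte replicate 2, with the nearest other array of its group at 3.80.

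The cultured minus primary difference passed a test for a difference between the 2 lineages for 49 of the genes named. The measure is the hepatocyte condition minus primary hepatocytes, less the cholangiocyte condition minus primary cholangiocytes, tested as an interaction in the limma fit with Benjamini-Hochberg adjustment. It passed for 9808 of all 25971 genes tested, and for 2308 of the same-side genes that passed. For 35 of the 49, each of the 4 groups had an array above background. The junction, keratin and epithelial genes gave 11.97 for Krt19, 8.01 for Cldn7, 5.31 for Cldn3, 4.93 for Scnn1a, 4.72 for Esrp1 and 3.56 for Cdh1. The cytoskeleton, matrix and membrane genes gave 10.19 for Anxa8, 9.24 for Ankrd1, 6.65 for Ncam1, 6.32 for Flna, 5.88 for Spp1, 5.41 for Tuba1a, 4.76 for Msn, 3.75 for Vim and 2.28 for Unc5b. The growth and cell cycle genes gave 8.39 for Pkm, 8.03 for Igf1r, 7.05 for Psat1, 5.65 for Cdkn1a, 5.56 for Igf2bp2, 3.79 for Hmga2, 3.16 for Mki67, 2.78 for Ccnd1 and 1.64 for Mcm6. The other positive values were 2.42 for Snai1 and 1.74 for Irx3. Values below 0, meaning a lower difference in the hepatocyte lineage, were -6.64 for Zeb1, -4.38 for Hnf4a, -2.81 for S100a4 and -1.90 for Sparc. Further values below 0 were -9.55 for Igfbp2, -6.18 for Bdh1, -4.26 for Ehhadh, -3.98 for Susd4 and -2.52 for Dhcr7. For the other 14, at least 1 of the 4 groups had no array above background, so the value rests partly on background signal and is no measured size. These gave 13.46 for Krt7, 10.87 for Timp1, 10.55 for Epcam, 8.26 for Fhl2, 8.04 for Cdkn2a, 5.68 for Kit and 1.91 for Pdgfra, and -12.88 for Alas2, -4.52 for Rnf186, -4.34 for Twist2, -3.81 for Zeb2, -3.34 for Lyve1, -2.78 for Cdh5 and -1.78 for Foxf2. The adjusted p ran from 5.9e-10 for Krt7 and Timp1 to 0.0499 for Irx3. All are log2 values.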

How the results depend on the processing

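In every setting tried, 5545 to 7436 genes were higher in cultured cells and 5573 to 10457 lower; the top of the second range came with no filter on dim probes, which tested 31581 genes. With the replicate number as a block, 6429 genes were higher and 7215 lower, 3955 and 3931 of them same-side, and 208 and 129 passed every group difference. Leaving out 1 array at a time gave 6064 to 6594 higher and 6336 to 7621 lower genes, and 3455 to 4066 and 3207 to 3785 same-side ones. Genes past every group difference numbered 157 to 325 and 104 to 191 under the same omissions, the lowest without primary cholangiocyte replicate 3 and without cholangiocyte condition replicate 2. That set held 124 higher and 86 lower genes with slide as a block, 145 and 88 with array weights, and 91 lower genes with median scaling; the cause was not tested. The share of same-side genes that were higher was 52.4% in the main scaling, 63.8% with median scaling and 58.2% with quantile normalization.

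Signs turned for genes that had not passed: Hnf4a was at -0.33 with arrays weighted equally, Col1a1 at -0.29 and Ptprc at -0.06 with normexp. Without primary cholangiocyte replicate 3 or 4 in turn, Hnf4a was at 1.02 and -0.24, Col1a1 at 2.19 and -0.65, and Ptprc at -0.49 and 0.90. Epcam was at 1.15 within slide 1, which held no cholangiocyte array. Hoxa13 lost its call with quantile normalization (-1.30), as did Col3a1 (-1.85), and Lyz2 with normexp (-0.44). Alb passed at -6.03 with arrays weighted equally, and Ttr in 6 settings, by -2.21 to -4.02. Limits are the 2 primary cholangiocyte arrays, which differ from each other, the dim probes, whose differences depend on the background correction, and the lower 75th percentile of primary hepatocyte arrays. The replicate number did not pair arrays.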
